A study of Mus musculus with 16 samples.

Results

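The enzymes of glycolysis, glycogen turnover and the phosphocreatine shuttle were followed through 37 genes, chosen by name among the 34836 gene names on the array. Of the 37, 14 encode the isoform that predominates in adult skeletal muscle, 11 encode another isoform of the same enzymes, and 12 fall in neither class. Glycolysis splits glucose to pyruvate, which lactate dehydrogenase turns to lactate, and yields ATP without oxygen. Muscle fibers store glucose as glycogen and buffer their ATP with phosphocreatine, and for many of these steps they carry an isoform from a gene that most other tissues use little.

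The study asks how the progeny of satellite cells, the stem cells of skeletal muscle, differ in transcription when they divide on their fiber and when they divide away from it. RNA came from male C57Bl/6J mice 11 to 13 weeks old, and the labels name no transgene and no treatment other than the culture. The cells were collected 48 or 72 hr into culture, either dispersed on gelatin or stripped with trypsin from explanted fibers (myofiber-associated), with 4 arrays in each of the 4 groups and 16 in all. A myofiber-associated preparation pooled 2 mice, a dispersed preparation came from 1 mouse, and replicate 4 of the myofiber-associated 48-hr group carried 2 preparations. The labels give myofibres as the source of every sample, and the culture was read from their separate entry for the type of growth.

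Values are log2 signals of single-color Agilent arrays after normalization, and a change is a difference between group means on that scale. Between 54.0% and 63.5% of the probes on an array were well above background. Probes differ in brightness, so a level was compared between arrays and not between genes. Of the 37 members, 36 passed the filter on low signal. The gene that did not was Fbp2, the muscle fructose bisphosphatase, and it had no test.

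Each culture had a slide of its own, which means that a difference between cultures and one between slides cannot be told apart. Time was bound to position on the slide in the same way, with columns 1 and 2 for 72 hr and columns 3 and 4 for 48 hr. Among the myofiber-associated 72-hr arrays, replicates 1 and 3, in column 1, stood apart from replicates 2 and 4, in column 2. All 14 muscle isoforms were lower on replicates 1 and 3 than on replicates 2 and 4. Relative to the myofiber-associated 48-hr mean, the median muscle isoform lay at -3.00 and -3.40 on replicates 1 and 3 and at -1.11 and -0.89 on replicates 2 and 4. At 48 hr in the same culture the order was the opposite, with 13 of the 14 muscle isoforms and 12 of the 15 adult fiber markers higher on replicates 1 and 3 than on replicates 2 and 4. The median of the 11 other isoforms stayed between -0.09 and 0.43 on the 72-hr arrays.

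The 15 adult fiber markers, genes of the fiber's contractile and calcium machinery together with Cox6a2 and Mb, were followed as a gauge of fiber transcripts. This was done since the labels describe the stripped cells as free of RNA from the fiber itself. All 15 were well above background on every array, except Casq1 on replicate 4 of the dispersed 72-hr group, so the dispersed cells gave signal for them too. Their summed signal was 21.39, 21.15, 21.37 and 20.95 on the myofiber-associated 48-hr arrays and 19.34, 20.67, 18.76 and 20.91 on the 72-hr arrays. It was 16.15, 15.67, 15.09 and 14.79 on the dispersed 48-hr arrays and 14.22, 14.08, 13.73 and 13.72 on the 72-hr arrays. The probe of Tnnc2, fast troponin C, gave the highest signal of the 15 on most arrays, a value that depends on the probe as well as on the RNA. With time the fiber markers moved in both cultures: in dispersed cells 10 of 15 fell, with a median log2 change of -1.86, and in myofiber-associated cells 2 of 15 fell, with a median of -2.11. The part of fiber RNA in the changes of the muscle isoforms was not tested, and in such bulk samples fewer cells of a type and less RNA per cell cannot be told apart.

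**Figure D1:**
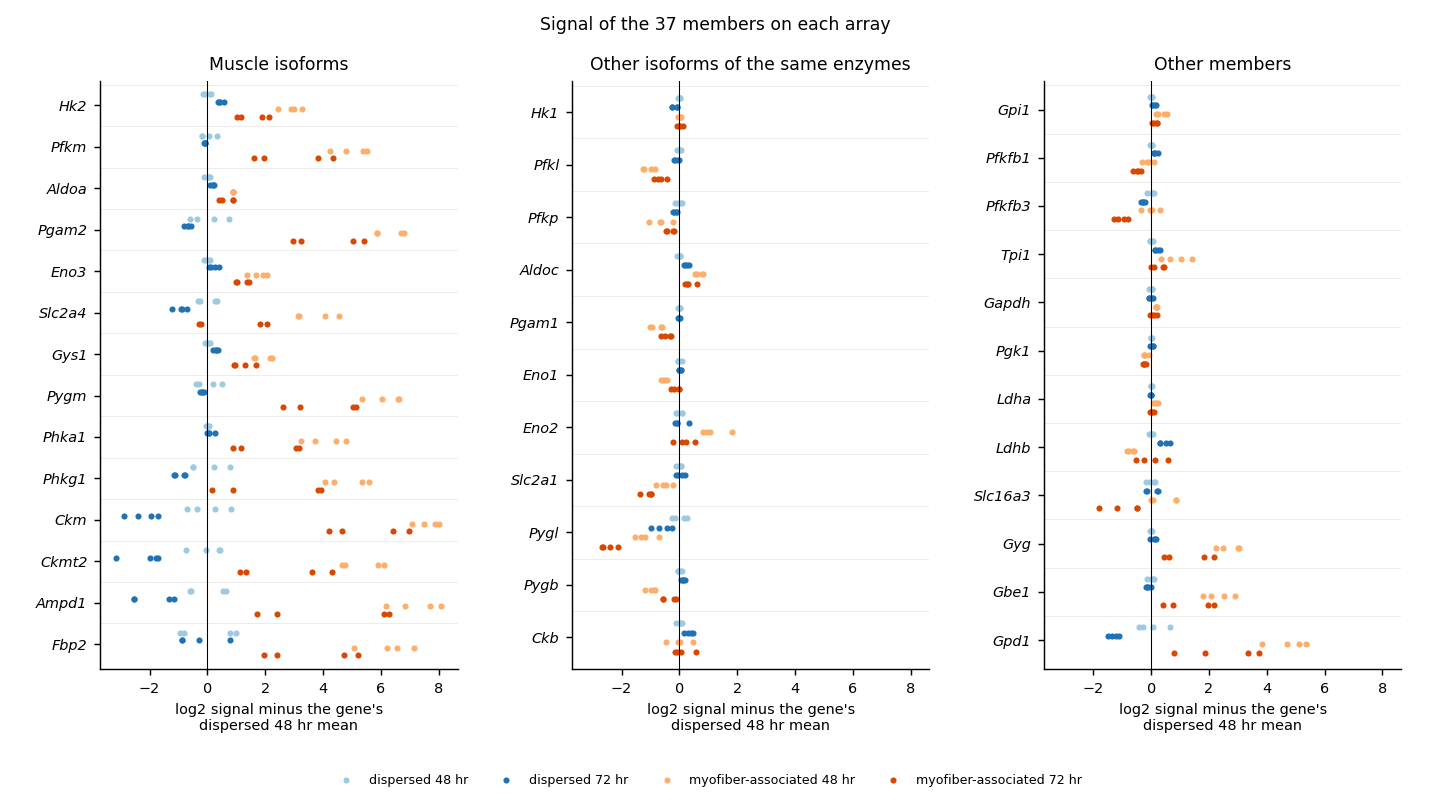
Log2 signal of each of the 37 members on each of the 16 arrays, relative to that gene's mean over the dispersed 48-hr arrays, in panels for the muscle isoforms, the other isoforms and the members of neither class. The muscle isoforms are high on the myofiber-associated arrays, and they spread furthest over the 72-hr arrays of that culture.

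Between 48 and 72 hr in dispersed culture, transcripts for muscle creatine kinases, the insulin-regulated glucose transporter and glycerol phosphate dehydrogenase fell, and those for hexokinase 2, glycogen synthase and lactate dehydrogenase B rose. In numbers, 3 of the 36 tested members rose, beside 7.38% of all 20317 genes tested, a share near the background. Another 5 fell, beside 6.32% of all genes, a share above it. The 72-hr arrays lay wholly above the 48-hr arrays for 8 members, beside 17.5% of all genes, and wholly below for 9, beside 13.6%. The median change of the 36 was -0.003, and that of all genes 0.02. Among the 13 muscle isoforms tested, Hk2 and Gys1 rose and Ckm, Ckmt2 and Slc2a4 fell. Of the 11 other isoforms 0 passed in limma, with 6 at an unadjusted p under 0.05, 3 of them higher, and 3 in a SAM-type permutation test, 2 of them higher. These counts leaned on single arrays. The number of members called, 8 with all arrays, became 1 without 48-hr replicate 2 or without 72-hr replicate 3. It was 2 without 72-hr replicate 2, 3 without 48-hr replicate 1, and 4 without any 1 of the other arrays. These numbers may include members not called with all arrays. Scaling to the 75th percentile gave 5 higher and 4 lower and a SAM-type test gave 7 and 8, and 1 fit of all 16 arrays gave 0, where limma had 21 members at an unadjusted p under 0.05 in the separate fit.

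Between 48 and 72 hr on the fiber, 29 of the 36 tested members had a change below 0, and few of them passed the test. In myofiber-associated cells 2 members fell, Pygl and Pfkfb3, beside 1.74% of all genes, and 0 rose, beside 3.74%. At an unadjusted p under 0.05 limma had 5 members higher and 23 lower, and the SAM-type test called 3 higher and 8 lower. No share of all genes stands beside these counts, nor beside others at an unadjusted p or in the SAM-type test. The same holds for counts in any setting or set of arrays other than the main one. Such counts therefore do not show that members changed more often than other genes. The median change of the 36 was -0.66, and that of all genes 0.06. The 72-hr arrays lay wholly below the 48-hr arrays for 16 members, beside 10.4% of all genes, and wholly above for 3, beside 15.9%. All 13 muscle isoforms tested had a change below 0, with a median of -2.06, and 0 of them passed in limma. At an unadjusted p under 0.05 that fit had 12 of them lower, the SAM-type test called 2 lower, and 1 fit of all 16 arrays called 11 lower. The 11 other isoforms had a median of 0.11, with 1 lower. At an unadjusted p under 0.05 limma had 4 of them higher and 4 lower. The SAM-type test called 3 higher and 3 lower, and 1 fit of all 16 arrays 4 and 4.

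The count on the fiber depended on which 72-hr arrays were used. Without replicates 1 and 3, the arrays of column 1, limma called 0 members, and without replicates 2 and 4, the arrays of column 2, it called 2 higher and 15 lower. The share of all genes called with these arrays is not given, so the counts are not set against other genes. It called 0 without any 1 of 48-hr replicates 1 and 3 or 72-hr replicates 1, 2 and 3, and 1 without 48-hr replicate 2. The fiber markers split the same arrays, with medians of -3.02, -1.04, -3.37 and -0.61 on 72-hr replicates 1 to 4. At 72 hr, replicates 1 and 3 lay below replicates 2 and 4 in 13 of the 15 fiber markers and in 25 of the 37 members.

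**Figure D2:**
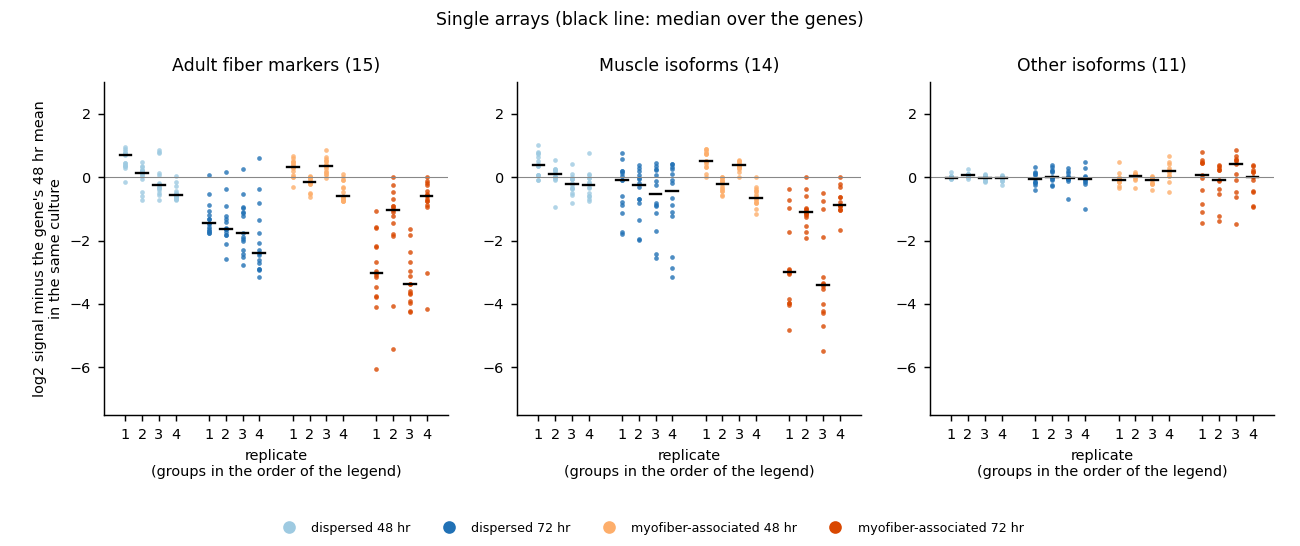
Log2 signal on each array relative to the 48-hr mean of the same culture, for the adult fiber markers (15), the muscle isoforms (14) and the other isoforms (11), with 1 point per gene and a bar at each median. On the myofiber-associated 72-hr arrays the fiber markers and the muscle isoforms lie lowest on replicates 1 and 3, and the medians of the other isoforms stay between -0.09 and 0.43.

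**Figure D3:**
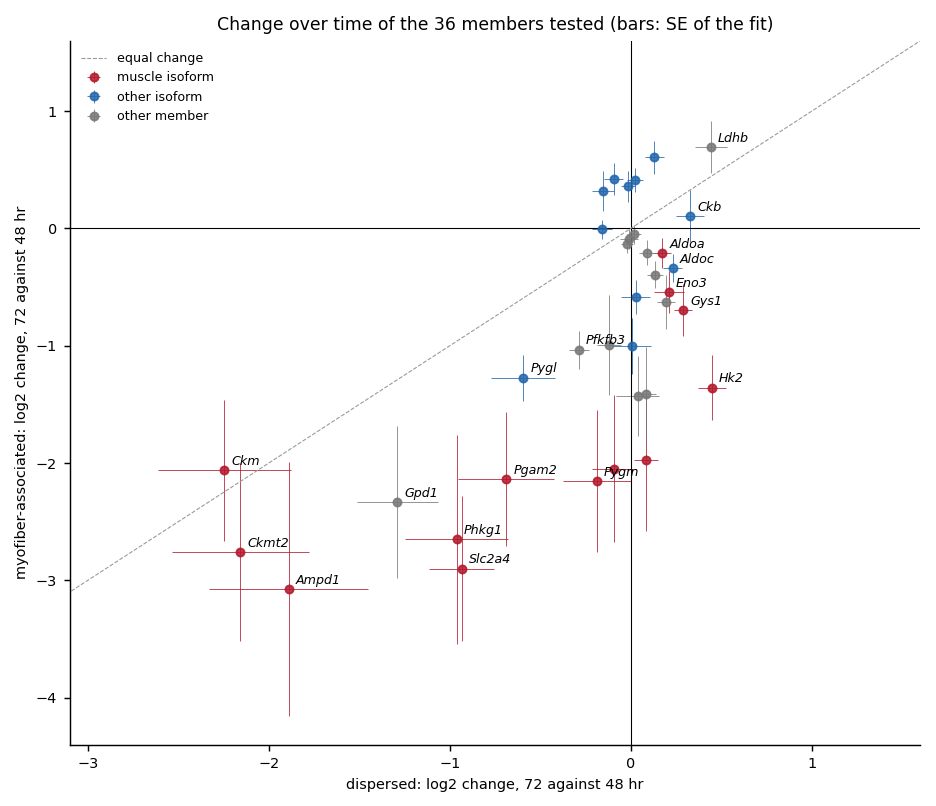
Log2 change from 48 to 72 hr in dispersed cells (x axis) against that in myofiber-associated cells (y axis) for the 36 members tested, with bars for the standard error. Muscle isoforms spread downward along the y axis to -3.07, while Hk2, like Gys1, Eno3, Aldoa and Phka1, lies above 0 on the x axis and below 0 on the y axis.

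Set side by side at 48 hr, the cultures differed in 27 of the 36 tested members, with the muscle isoforms higher on the fiber and most of the other isoforms lower. Myofiber-associated cells were higher in 19 members, beside 16.1% of all genes, and lower in 8, beside 27.0%. All 13 muscle isoforms tested were higher, with a median log2 difference of 4.85, against -0.12 for all genes. Of the 11 other isoforms 7 were lower and 2, Aldoc and Eno2, higher, with a median of -0.53. With the mean of all probes of a gene, 9 were lower and 2 higher, Hk1 and Ckb then among the lower. Among members of neither class 4 were higher and 1 lower. At 72 hr 10 members were higher in myofiber-associated cells, beside 11.5% of all genes, and 7 lower, beside 15.6%. The muscle isoforms then had 9 of 13 higher, with a median of 3.04, and the other isoforms 4 of 11 lower, with a median of -0.22. The size of the 72-hr differences depended on the myofiber-associated arrays used. Without those of column 2 and without those of column 1, the log2 difference was 6.67 and 8.95 for Ckm, 3.79 and 5.91 for Pgam2 and 3.10 and 5.27 for Pygm. The 72-hr count of 17 became 11 without dispersed 72-hr replicate 2 or 3. Some single calls also depended on the arrays or the scaling. At 48 hr Pfkp, Tpi1 and Slc2a1 passed in 6, 7 and 8 of 16 other settings, with adjusted p up to 0.0274 without dispersed replicate 2, 0.0229 without myofiber-associated replicate 3 and 0.0218 without dispersed replicate 3. At 72 hr Pfkm passed in 12 of 18, Hk2 and Pgam1 in 10 each and Pgk1 in 4, with adjusted p up to 0.0138 without dispersed replicate 3, 0.0238 and 0.0193 without dispersed replicate 2 and 0.15 after scaling to the 75th percentile. The 15 fiber markers were higher in myofiber-associated cells in 15 cases at 48 hr, with a median of 6.05, and in 13 at 72 hr, with a median of 5.92, and their part in these differences was not tested.

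Glucose enters muscle cells through GLUT4 (Slc2a4), which insulin and contraction bring to the membrane, and through the widespread GLUT1 (Slc2a1). The Slc2a4 signal was 9.52, 9.45, 8.93 and 8.86 on the dispersed 48-hr arrays and 8.31, 8.49, 8.27 and 7.97 on the 72-hr arrays, and fell by 0.93 (SE 0.18, adjusted p = 0.00717). Over 17 other settings that p ran from 0.000687 to 0.281, and the call was lost without any 1 array other than 48-hr replicate 4. On the fiber it went from 13.76, 12.37, 13.25 and 12.33 to 8.95, 11.00, 8.91 and 11.24, a change of -2.90 that did not pass (SE 0.62, adjusted p = 0.0164). It was higher in myofiber-associated cells by 3.74 at 48 hr (adjusted p = 5.66e-05), and its 72-hr difference of 1.77 did not pass. Slc2a1 ran the other way between the cultures, with log2 differences of -0.51 at 48 hr and -1.12 at 72 hr (adjusted p = 0.000213 at 72 hr). Its change on the fiber was -0.58 (adjusted p = 0.027).

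Hexokinase traps glucose in the cell by phosphorylating it, and its muscle form Hk2 changed differently with time in the cultures. In dispersed cells the Hk2 signal rose from 10.74, 10.95, 10.91 and 10.67 to 11.39, 11.20, 11.25 and 11.23, which is 1.36-fold (log2 change 0.45, SE 0.08, adjusted p = 0.00436). That rise passed in 10 of 17 other settings (adjusted p 0.00262 to 0.236), and not without 48-hr replicate 1 or 4 or 72-hr replicate 1, 2 or 3. On the fiber it went from 13.80, 13.72, 14.08 and 13.27 to 11.97, 12.70, 11.83 and 12.94, a change of -1.36 that did not pass (SE 0.28, adjusted p = 0.0147). The difference between these changes, positive where dispersed cells rose more, was 1.80 (SE 0.31, adjusted p = 0.00326). Hk2 was thus the 1 member that passed that test, beside 1.09% of all genes with a positive difference, while 0 members had a negative one, beside 2.36%. Hk2 passed it in 27 of 27 other settings, with adjusted p between 5.74e-05 and 0.00933. At an unadjusted p under 0.05 limma had 19 members with a positive and 5 with a negative difference, and the SAM-type test called the same numbers. The count of 1 became 10 without myofiber-associated 48-hr replicate 4, 6 without 72-hr replicate 4 of that culture, 2 without its 48-hr replicate 2 or 72-hr replicate 3, and 20 without the 72-hr arrays of column 2. Hk1, the hexokinase of most tissues, passed no test between times or cultures with its brightest probe and the main settings. Its difference was -0.15 (adjusted p = 0.228). With the mean of its probes it was lower in myofiber-associated cells at 48 hr.

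Phosphofructokinase commits sugar phosphate to glycolysis. Its muscle subunit Pfkm was higher in myofiber-associated cells by 4.99 at 48 hr and by 3.04 at 72 hr, while the liver subunit Pfkl was lower by -1.08 and -0.57 and the platelet subunit Pfkp was lower by -0.64 at 48 hr. With time on the fiber Pfkm had a change of -2.05 (adjusted p = 0.0492), and in dispersed cells -0.10. Pfkfb3 makes fructose 2,6-bisphosphate, the activator of phosphofructokinase, and was 1 of the 2 members that fell on the fiber. There it fell from 11.00, 10.66, 10.73 and 10.34 to 9.42, 9.74, 9.55 and 9.90, by 1.03 (SE 0.16, adjusted p = 0.00563). In dispersed cells Pfkfb3 fell from 10.70, 10.77, 10.56 and 10.73 to 10.42, 10.46, 10.35 and 10.39, by 0.29 (SE 0.06, adjusted p = 0.00757). The fiber call passed in 9 of 19 other settings (adjusted p 3.52e-05 to 0.0707) and was lost without any 1 of replicates 1, 2 and 3 at either time. The dispersed call passed in 6 of 17 (adjusted p 0.00248 to 0.178) and was lost without any 1 array other than 48-hr replicate 3. Over those 17 settings the change ran from -0.57 to -0.24. At 72 hr Pfkfb3 was lower in myofiber-associated cells by -0.75, a call that passed in 17 of 18 other settings. That call was lost with the mean of all probes (adjusted p = 0.244). The other Pfkfb3 probe was well above background on 2 of the 4 dispersed 72-hr arrays. Pfkfb1, the liver and muscle form, passed at 72 hr, where it was lower in myofiber-associated cells (-0.63, adjusted p = 0.000487). Fbp2, which runs the opposite reaction in muscle, was well above background on every myofiber-associated array and on 0 of the 8 dispersed arrays. Its myofiber-associated signal was at least 31.8-fold the dispersed one at 48 hr and at least 5.63-fold at 72 hr. Gpi1, which converts glucose phosphate to fructose phosphate, passed in no comparison with the main settings. Its difference between the cultures at 48 hr was 0.34.

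Of the aldolases, which split the sugar, Aldoa, the muscle form that other tissues also express, was higher in myofiber-associated cells at 48 hr by 0.88 (adjusted p = 2.14e-05). Its spot was the brightest of all on those arrays, and quantile normalization set it to 18.87 on each of them, so scaling to the 75th percentile gave a larger difference, 1.46. The brain form Aldoc was higher there too, by 0.68, and so was triose phosphate isomerase, Tpi1, by 0.86. With the brightest probe and the main settings, neither Gapdh, which oxidizes the triose, nor Ldha, the lactate dehydrogenase subunit that muscle favors, passed. Their changes were -0.01 and -0.02 in dispersed cells and -0.09 and -0.13 on the fiber. Between the cultures at 48 hr they differed by 0.17 and 0.15, and by 0.43 and 0.35 after scaling to the 75th percentile. That scaling and the SAM-type test each called 22 members higher there, 13 of them muscle isoforms and 2 other isoforms. Whether Gapdh and Ldha pass can thus depend on the scaling and the test. Pgk1, the step that returns the invested ATP, was lower in myofiber-associated cells at 72 hr by -0.26.

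The muscle phosphoglycerate mutase Pgam2 stood 78.9-fold higher in myofiber-associated cells at 48 hr and 28.9-fold higher at 72 hr (log2 6.30 and 4.85, adjusted p = 4.32e-06 and 0.000321). The other mutase, Pgam1, was lower there by -0.79 and -0.42. Enolase, the next step, gave the same contrast: muscle Eno3 was higher by 1.75 at 48 hr and 0.999 at 72 hr, and the widespread Eno1 was lower by -0.53 at 48 hr. The neuronal Eno2 was higher by 1.17 at 48 hr. On the fiber the change of Pgam2 was -2.14 (adjusted p = 0.0331), that of Eno3 -0.54 (adjusted p = 0.0563), that of Eno2 -1.0 (adjusted p = 0.0238) and that of Eno1 0.41 (adjusted p = 0.0251).

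At the end of the pathway Ldhb, the subunit of the heart's lactate dehydrogenase, rose in dispersed cells from 11.99, 11.93, 11.99 and 12.04 to 12.28, 12.27, 12.51 and 12.65, by 0.44 (SE 0.09, adjusted p = 0.00805). Over 17 other settings that p ran from 0.00259 to 0.141, and the call was lost without any 1 of the 48-hr arrays or 72-hr replicate 3. On the fiber its change was 0.69 and did not pass (adjusted p = 0.0546). It was lower in myofiber-associated cells at 48 hr (-0.71, adjusted p = 0.000161). Slc16a3, which exports lactate, had a change of -1.43 on the fiber (adjusted p = 0.0236). Gpd1 draws triose phosphate off to glycerol phosphate, and it fell in dispersed cells by 1.29 (SE 0.23, adjusted p = 0.00464), from 9.95, 9.37, 8.86 and 9.01 to 8.19, 8.09, 7.81 and 7.94. It did so in 10 of 17 other settings (adjusted p 0.000272 to 0.146), and not without 48-hr replicate 2 or any 1 of the 72-hr arrays. Its signal on the fiber went from 14.67, 14.01, 14.42 and 13.13 to 11.14, 12.63, 10.08 and 13.03, a change of -2.33 (adjusted p = 0.0368). Gpd1 was higher in myofiber-associated cells by 4.76 at 48 hr and 3.72 at 72 hr.

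Of the genes of glycogen turnover, those of breakdown in muscle lay further apart between the cultures than those of synthesis. Pygm, the muscle phosphorylase that frees glucose phosphate from glycogen, was 71.0-fold higher in myofiber-associated cells at 48 hr (log2 6.15, adjusted p = 3.63e-06) and higher by 4.18 at 72 hr (adjusted p = 0.000725). On the fiber its signal went from 16.63, 16.004, 16.56 and 15.33 to 13.19, 15.001, 12.59 and 15.12, a change of -2.15 (adjusted p = 0.0377). Between the cultures the phosphorylases of liver and brain ran against Pygm, though over time on the fiber Pygl was lower as well. Pygl fell on the fiber 2.42-fold, from 8.70, 8.49, 8.83 and 9.31 to 7.38, 7.62, 7.34 and 7.90 (log2 change -1.27, SE 0.20, adjusted p = 0.00534). That call passed in 12 of 19 other settings (adjusted p 0.00024 to 0.0695) and was lost without 48-hr replicate 1 or 3 or 72-hr replicate 1, 2 or 3. Pygl was lower in myofiber-associated cells by -1.19 at 48 hr and -1.87 at 72 hr, and its change in dispersed cells was -0.60 (adjusted p = 0.0398). Pygb was lower there by -0.97 at 48 hr, and its change on the fiber was 0.61 (adjusted p = 0.0218). Phosphorylase kinase switches phosphorylase on, and its muscle subunits Phka1 and Phkg1 were higher in myofiber-associated cells at 48 hr by 4.05 and 4.85. Their 72-hr differences of 1.99 and 3.16 did not pass. Their changes on the fiber were -1.98 (adjusted p = 0.0476) and -2.65 (adjusted p = 0.0623).

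Glycogen synthase, Gys1, lengthens the chain that glycogenin, Gyg, starts and the branching enzyme, Gbe1, branches. In dispersed cells Gys1 rose from 11.31, 11.26, 11.17 and 11.23 to 11.45, 11.53, 11.60 and 11.55, by 0.29 (SE 0.05, adjusted p = 0.0042). The rise passed in 10 of 17 other settings (adjusted p 0.00163 to 0.343), and not without replicate 2, 3 or 4 of either time. On the fiber it went from 13.47, 12.87, 13.42 and 12.84 to 12.18, 12.55, 12.16 and 12.92, a change of -0.70 (adjusted p = 0.0539). At 48 hr all 3 genes were higher in myofiber-associated cells, Gys1 by 1.91, Gyg by 2.68 and Gbe1 by 2.31.

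Muscle creatine kinase, Ckm, passes phosphate between ATP and creatine. At 48 hr its transcript showed the widest gap between the cultures of any member tested. No such rank is given for 72 hr, where the size of the Ampd1 gap is not known. Ckm was 198-fold higher in myofiber-associated cells at 48 hr and 225-fold higher at 72 hr (log2 7.63 and 7.81, SE 0.34 and 0.62, adjusted p = 2.22e-06 and 7.26e-05). Without the myofiber-associated arrays of 1 or the other slide column, the log2 difference at 72 hr ran from 6.67 to 8.95. In dispersed cells the Ckm signal fell from 10.54, 9.99, 9.38 and 9.04 to 8.01, 7.77, 7.32 and 6.86, which is 4.74-fold (log2 change -2.25, SE 0.37, adjusted p = 0.0034). That fall passed in 13 of 17 other settings (adjusted p 0.00018 to 0.0148), and not without 48-hr replicate 2 or 72-hr replicate 3. On the fiber it went from 17.76, 17.24, 17.62 and 16.83 to 14.38, 16.16, 13.94 and 16.72, a change of -2.06 that did not pass (SE 0.60, adjusted p = 0.0428). The difference between these changes was -0.18 (adjusted p = 0.879).

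The mitochondrial creatine kinase of muscle, Ckmt2, followed Ckm. In dispersed cells it fell from 8.77, 8.28, 8.75 and 7.59 to 6.55, 6.36, 6.65 and 5.20 (log2 change -2.16, SE 0.38, adjusted p = 0.0048), in 10 of 17 other settings (adjusted p 0.00224 to 0.0476) and not without 48-hr replicate 1, 2 or 3 or 72-hr replicate 1 or 2. On the fiber it went from 14.45, 13.12, 14.26 and 13.01 to 9.67, 11.98, 9.48 and 12.66, a change of -2.76 (adjusted p = 0.0356). Ckb, the brain creatine kinase, did not pass in any comparison with its brightest probe and the main settings. With the mean of its probes it was lower in myofiber-associated cells at 48 hr. Ampd1, the muscle AMP deaminase, was 147-fold higher in myofiber-associated cells at 48 hr (log2 7.2, adjusted p = 1.09e-05). Its change on the fiber was -3.07 (SE 1.08, adjusted p = 0.0704). In dispersed cells 2 of the 4 72-hr arrays were well above background, so the size of its change there is not known, and it did not pass (adjusted p = 0.0158).

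The Ckm and Ckb probes target related coding sequences, and both are shown because the ratio of these genes rests on the probes telling them apart. Aligned over the 56 bases they share, 45 bases match, and the 11 that differ are in capitals. The files place the Ckm probe at chr7:20002222-20004829 and the Ckb probe at chr12:112908459-112909105 in the mm9 build.
Ckm probe: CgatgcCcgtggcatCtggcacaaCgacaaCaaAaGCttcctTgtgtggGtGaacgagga
Ckb probe: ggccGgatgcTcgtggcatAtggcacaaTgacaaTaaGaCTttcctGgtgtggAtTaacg

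Where a gene had several probes, they did not always give the same change. Over time on the fiber the 2 probes of Ckb gave 0.10 and 1.67, and those of Hk1 ran from -0.01 to 0.82. The 7 probes of Gapdh ran from -0.59 to -0.09 and those of Ldha from -0.69 to -0.13, all below 0. Between the cultures at 48 hr the other Ckb probe gave -1.78 and the other Hk1 probes -0.97 and -0.62, while the other 6 Gapdh probes ran from 0.52 to 1.06 and the other Ldha probes gave 0.62 and 0.65. Of the 37 members, 23 had 1 probe, so no such comparison was possible for them. Pfkm and Slc2a4 were each spotted 10 times per array, with a median SD over spots of 0.05 and 0.08.

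Within an array, the ratio of an isoform to its counterpart shows whether the pair changed unequally. Each gene entered with its brightest probe. The probes of Ckb and of Hk1 gave unequal changes on the fiber, so the size of the changes in their ratios depends on the probe. Of 20 pairs 18 were measured, 16 with a muscle isoform first and 2, Ldha to Ldhb and Pfkfb1 to Pfkfb3, with a member of neither class first. In dispersed cells 9 pairs had 72-hr ratios that did not overlap the 48-hr ratios, 2 higher and 7 lower, with a median change of -0.19 over the 18. The ratio of Ckm to Ckb changed by -2.57, that of Ckmt2 to Ckmt1 by -2.22, that of Slc2a4 to Slc2a1 by -0.96 and that of Phkg1 to Phkg2 by -1.03. The ratio of Ldha to Ldhb changed by -0.46. The 2 other lower pairs set Ampd1 against Ampd2 and Ampd3, with changes of unknown size, since Ampd1 was well above background on 2 of the 4 72-hr arrays. The ratios of Hk2 to Hk1 and of Pfkfb1 to Pfkfb3 were higher, by 0.61 and 0.42.

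On the fiber 11 pairs did not overlap, and in all 11 the ratio was lower at 72 hr. Their changes were -1.35 for Hk2 to Hk1, -2.47 for Pfkm to Pfkl, -2.50 for Pgam2 to Pgam1, -0.95 for Eno3 to Eno1, -2.32 for Slc2a4 to Slc2a1, -2.76 for Pygm to Pygb, -2.17 for Ckm to Ckb, -2.77 for Ckmt2 to Ckmt1, -2.57 for Phka1 to Phka2, -3.13 for Phkg1 to Phkg2 and -0.82 for Ldha to Ldhb. The median over the 18 pairs was -2.24, with 15 below 0. The exceptions were Pfkfb1 to Pfkfb3 at 0.64, Eno3 to Eno2 at 0.46 and Aldoa to Aldoc at 0.13, the last of which was -0.15 after scaling to the 75th percentile. For each pair without overlap the two-sided exact permutation test gave p = 0.0286, the smallest that 4 arrays against 4 allow, which adjusted over the 18 pairs is 0.0571 in dispersed cells and 0.0468 on the fiber. The last value needs all 11 pairs. Pfkm to Pfkl overlapped after scaling to the 75th percentile or quantile normalization alone, and with the 10 pairs left the adjusted p no longer lies under 0.05. The difference between the cultures in these ratios was not tested.

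**Figure D4:**
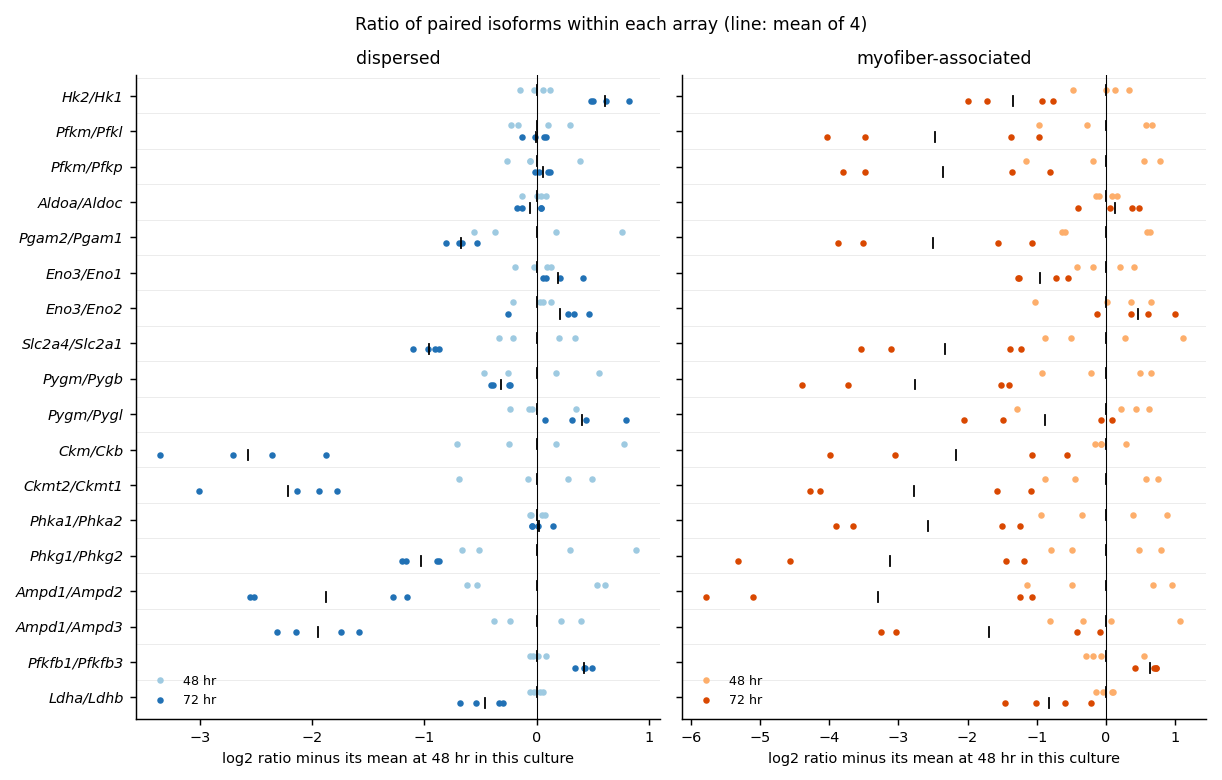
Log2 ratio of the first to the second isoform of a pair on each array, relative to the 48-hr mean of the same culture, for the 18 pairs in dispersed and myofiber-associated cells. On the fiber 15 of 18 pairs have a mean change below 0, with Aldoa to Aldoc turning to -0.15 after scaling to the 75th percentile.

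The promoters of 34 of the 37 members, the 250 bases before the transcription start in the RefSeq table, were searched on both strands. An E-box with a GC center, CAGCTG, which myogenic regulators such as MyoD bind, lay in 9 of the 34, beside 14.7% of all genes. It lay in 7 of 12 muscle isoforms (Pgam2, Gys1, Pygm, Phka1, Ckm, Ckmt2 and Fbp2) and in 0 of 11 other isoforms. The core of the hypoxia response element, ACGTG, lay in 13 of the 34, beside 18.5% of all genes, in 5 of 12 muscle isoforms and 4 of 11 others. A MEF2 site lay in 3 of the 34 (Pfkfb1, Pgam2 and Ckb), beside 3.42% of all genes. No binding was measured.

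The promoters of 6 muscle isoforms are shown for the position of these sites, which are in capitals. All 6 genes were higher in myofiber-associated cells at both times, and Gys1 and Hk2 also rose in dispersed cells. The E-box lies in 5 of them and not in Hk2, and ACGTG lies in Hk2 and in Pygm. Pgam2 also holds the MEF2 site. Each runs in the direction of transcription to the base before the start. In the GRCm38.p6 assembly they lie at chr7:19410844-19411093 on the plus strand for Ckm, chr13:91876886-91877135 on the minus strand for Ckmt2, chr11:5803797-5804046 on the minus strand for Pgam2, chr19:6384158-6384407 on the plus strand for Pygm, chr7:45434589-45434838 on the plus strand for Gys1 and chr6:82774455-82774704 on the minus strand for Hk2.
Ckm promoter: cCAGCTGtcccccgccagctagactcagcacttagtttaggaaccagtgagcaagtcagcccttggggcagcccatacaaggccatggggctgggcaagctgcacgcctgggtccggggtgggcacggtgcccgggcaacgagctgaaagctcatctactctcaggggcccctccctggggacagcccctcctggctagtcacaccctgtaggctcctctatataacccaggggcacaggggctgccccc
Ckmt2 promoter: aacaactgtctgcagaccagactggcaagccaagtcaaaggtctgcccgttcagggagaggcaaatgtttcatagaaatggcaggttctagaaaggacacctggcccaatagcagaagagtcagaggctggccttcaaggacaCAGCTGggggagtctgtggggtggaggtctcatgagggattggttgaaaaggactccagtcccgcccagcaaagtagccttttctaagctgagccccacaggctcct
Pgam2 promoter: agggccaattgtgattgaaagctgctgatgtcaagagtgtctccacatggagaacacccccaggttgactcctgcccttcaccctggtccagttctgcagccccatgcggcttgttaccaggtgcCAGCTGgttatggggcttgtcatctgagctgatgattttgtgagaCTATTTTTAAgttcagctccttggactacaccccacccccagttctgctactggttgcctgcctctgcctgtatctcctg
Pygm promoter: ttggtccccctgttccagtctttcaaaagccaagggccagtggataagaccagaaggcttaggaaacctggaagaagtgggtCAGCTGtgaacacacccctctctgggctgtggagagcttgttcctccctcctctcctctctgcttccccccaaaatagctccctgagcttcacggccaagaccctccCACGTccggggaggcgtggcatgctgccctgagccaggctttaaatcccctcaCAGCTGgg
Gys1 promoter: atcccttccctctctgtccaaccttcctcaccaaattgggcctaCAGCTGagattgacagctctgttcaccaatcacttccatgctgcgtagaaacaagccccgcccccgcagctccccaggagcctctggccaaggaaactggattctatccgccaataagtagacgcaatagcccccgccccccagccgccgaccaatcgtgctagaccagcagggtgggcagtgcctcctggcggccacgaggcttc
Hk2 promoter: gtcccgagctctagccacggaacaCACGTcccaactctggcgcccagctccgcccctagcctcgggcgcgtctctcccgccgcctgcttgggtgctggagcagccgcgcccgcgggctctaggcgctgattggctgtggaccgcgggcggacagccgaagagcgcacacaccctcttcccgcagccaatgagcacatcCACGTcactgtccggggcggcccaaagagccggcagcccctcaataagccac

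Genes of the same pathways outside the 37 gave a wider view, with 57 of 66 tested. In dispersed cells 4 rose and 5 fell, shares near the 7.38% and 6.32% of all genes. Ppp1r3c, which tethers a phosphatase to glycogen, fell there (adjusted p = 0.00295), but its 72-hr signal was well above background on 2 of 4 arrays, so the size of its change is not known, and the call was lost without 72-hr replicate 1 or 3. The others named were the creatine synthesis enzyme Gamt (0.97), the hexokinase Hk3 (-0.90), the adenylate kinase Ak1 (0.75), the glucose transporter Slc2a3 (-0.61) and the glycogen-binding Stbd1 (0.58). On the fiber 2 rose, a share near the 3.74% of all genes. They were Gatm, the first enzyme of creatine synthesis (1.5, adjusted p = 0.00677), and Pdk3, a kinase that shuts pyruvate dehydrogenase (0.96, adjusted p = 0.00864). Gatm was not called there without any 1 array other than 72-hr replicate 4, nor Pdk3 without any 1 other than 48-hr replicate 4. The median over the 57 on the fiber was -0.33. Myofiber-associated cells were higher in 26 and lower in 9 of the 57 at 48 hr, beside 16.1% and 27.0% of all genes, and higher in 17 and lower in 8 at 72 hr, beside 11.5% and 15.6%. Among those higher at 48 hr were Adssl1, the muscle adenylosuccinate synthase (6.13), Ldhd (5.81), Ppp1r3c (5.41), Pfkfb4 (4.80) and Pdk2 (4.77). Ppp1r3a, the muscle partner of the glycogen phosphatase, was higher there too, but its dispersed signal was well above background on 1 of 4 arrays, so the size of its difference is not known. That of Ldhd was so on 3 of 4. At 72 hr Ppp1r3a was on no dispersed array well above background and at least 15.5-fold higher in myofiber-associated cells, and Ldhd was higher by an unknown amount, with 1 of 4 dispersed arrays well above background. The others named were Adssl1 (4.43), Pdk2 (3.05), Pfkfb4 (2.63) and Pdk4 (1.7). The change over time differed between the cultures in 5. The difference was positive in 3, beside 1.09% of all genes, and negative in 2, beside 2.36%. It was positive for Ak1 (1.5), Stbd1 (1.08) and the creatine transporter Slc6a8 (0.85), and negative for Slc16a13 (-1.36) and Gatm (-1.29). Each of the 5 was lost without the myofiber-associated 72-hr arrays of column 1, the 1 of 28 alternatives that ended the calls of Ak1 and Stbd1. Slc16a13 was lost in 20 of the 28, Gatm in 17 and Slc6a8 in 12, among them any 1 dispersed array left out, other than 48-hr replicate 1 for Slc6a8. Of the myofiber-associated arrays left out singly, 48-hr replicate 3 and 72-hr replicates 2 and 3 ended all 3 calls, 48-hr replicate 1 and 72-hr replicate 1 those of Slc16a13 and Gatm, and 48-hr replicate 2 that of Slc16a13.

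Low oxygen induces many glycolytic genes, so 12 other genes that it induces were tested beside them. In dispersed cells Adm (0.93) and Egln3 (0.26) rose and Ndrg1 (-1.27) fell, and on the fiber Egln1 (-1.30) fell. The difference between the cultures passed for Adm (1.92) and Egln1 (1.31). The medians of the list were 0.05 in dispersed cells and -0.33 on the fiber. In myofiber-associated cells 2 of the 12 were higher and 3 lower at 48 hr, beside 16.1% and 27.0% of all genes. At 72 hr 0 were higher and 5 lower, beside 11.5% and 15.6%. Of 10 proliferation genes 1 fell in dispersed cells, and on the fiber their median was 0.33, with changes above 0 that did not pass.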

How the data were processed

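Agilent whole mouse genome arrays measured RNA in 16 samples, 4 in each of 4 groups by culture and time. The authors deposited scanner files whose unit, per the file headers, is the background-corrected intensity of each spot. They also deposited a table of log2 ratios of the 72-hr arrays to the mean of their culture's 48-hr arrays. Group and replicate come from the sample labels. Here log2 intensity was taken, spots that the scanner called outliers were left out, and each array was fitted by loess (span 0.3, 4 iterations) to its culture's 48-hr mean and quantile normalized over 16 arrays. Identical probes were averaged and the brightest probe stood for its gene. The filter asked for a median of at least 5 on the log2 scale, and 20317 of 34836 gene names passed it, 28 of them with a missing value. The files of the dispersed arrays give another gene name for 1849 spots, so the names in the myofiber-associated files were used for all, which gave Gapdh 1 more probe.

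Each comparison had its own fit in limma 3.58.1 (R 4.3.3 with version 1.17.8 of data.table), two-sided, Benjamini-Hochberg adjusted over all genes tested and called at an adjusted p under 0.01. The difference between the cultures was the interaction of culture and time over 16 arrays. Isoform ratios were tested by an exact permutation test over arrays, and the number of arrays sets the smallest p that this test can give. Counts, searches and plots used matplotlib 3.10.9, numpy 2.4.6 and pandas 2.3.3 under Python 3.11.15, and the fits were tested on simulated data. The members and lists were chosen with earlier results of these data known, and the alternatives were fixed before the data were examined, other than those named in the closing section. Values are given for members, whether called or not, and of other pathway genes for at most the 6 largest changes called per comparison. Alternatives changed the background correction (normexp, offset 50), scaling, filter, choice of probe, block, fit, test and arrays. Proteins of isoform pairs were not aligned, since no protein sequences were at hand.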

Additional observations from a re-analysis of the deposited data

Results flagged for a closer look

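In 3 of 220 groups of 4 arrays, 1 array lay far from the others by Dixon's test, and chance does so in about 1 in 20 groups. Eno1 was 17.63 on dispersed 48-hr replicate 2. Eno2 was 7.29 on dispersed 72-hr replicate 2. The log2 ratio of Pfkfb1 to Pfkfb3 was -0.83 on myofiber-associated 72-hr replicate 4.

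Among the members and the other pathway genes, the change from 48 to 72 hr differed between the cultures for 6 in limma's interaction test, given as dispersed minus myofiber-associated. Hexokinase 2 had a difference of 1.80, and it was the member among them. For the other pathway genes the difference was 1.5 for Ak1, 1.08 for Stbd1, 0.85 for Slc6a8, -1.36 for Slc16a13 and -1.29 for Gatm.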

How the results depend on the processing

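In dispersed cells the 8 members called over time were 1 with no filter on low signal, 0 in 1 fit of all 16 arrays and 15 in the SAM-type permutation test. The balance of 3 higher and 5 lower was 5 and 4 after scaling to the 75th percentile, 4 and 4 with the mean of all probes, 1 and 0 with no filter, 3 and 8 with the slide row as a block and 2 and 9 in the authors' deposited table. Leaving out 1 array at a time gave 1 to 4. On the fiber the 2 members called were 0 with no filter, 1 with the mean of all probes, 1 with the slide row as a block, 26 in 1 fit of all 16 arrays, 11 in the SAM-type test and 8 in the authors' deposited table. Leaving out 1 array gave 0 to 3. For the difference between the cultures the 1 member was 2 with normexp, 2 with the mean of all probes, 24 in the SAM-type test and 13 in the authors' deposited table, and 1 to 10 with 1 array left out. Leaving out the myofiber-associated 72-hr arrays of slide column 1 or column 2 was chosen after seeing the data. It gave 0 and 17 members on the fiber and 1 and 20 for the difference. Between the cultures, leaving out 1 array gave 24 to 28 members at 48 hr and 11 to 21 at 72 hr. The isoform pairs without overlap numbered 9 to 11 in dispersed cells and 11 to 15 on the fiber with 1 array left out, which can only keep or add such pairs. The shares of all genes called under these alternatives are not given, so a larger or smaller count may not be particular to the members. The causes were not tested.

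Of the values of single genes under an alternative, 346 stayed on their side of the threshold and 154 were weaker. Of those of isoform pairs, 476 kept their result, 14 were stronger, 12 moved and 2 were weaker. The signal over background limits Fbp2 and the dispersed values of Ampd1. No paired analysis was possible because the groups share no preparation and the numbers in the sample titles link no samples.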

Other observations

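Other cell types in the cultures were followed by their markers. Of 7 endothelial markers 6 fell with time in dispersed cells and 6 on the fiber, and 6 were lower in myofiber-associated cells at each time. Of 5 Schwann cell markers 4 fell in dispersed cells, and 4 were lower in myofiber-associated cells at 48 hr, with a median of -2.41, and 2 at 72 hr. Of 6 fibroblast markers 3 fell on the fiber, and in myofiber-associated cells at 72 hr 3 were lower and 1 higher, with a median of -1.12. Of 6 leukocyte markers 1 fell in dispersed cells, and in myofiber-associated cells 2 were lower and 1 higher at 48 hr, and 1 lower and 1 higher at 72 hr. The adipocyte list had 1 gene of 6 past the filter, and it fell in both cultures and was lower in myofiber-associated cells by -2.98 at 48 hr and -3.30 at 72 hr. The part of these cell types in the differences between cultures was not tested. Of 9 myoblast markers 3 rose in dispersed cells and 4 on the fiber. Of 12 differentiation markers 7 rose and 2 fell in dispersed cells. On the fiber 5 rose and 0 passed as lower, though 5 of the 12 had a change below 0, down to -2.46. Among those that rose there, the embryonic myosin Myh3 was at least 60.1-fold higher at 72 hr. The gene Chrna1 is in both the myoblast and the differentiation list.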
